A study of Homo sapiens with 2 samples.

Results

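The kinases of the RAF, MEK and ERK cascade were compared between a human pancreatic duct epithelial line that expresses a K-ras oncogene and the parental line, H6c7. H6c7 is a near-normal duct line immortalised with papillomavirus genes, which both lines therefore carry. Whether the K-ras line is a clone or a pool is not stated in the labels, which describe no line with an empty vector. Each line was measured on 1 Affymetrix U133A array, and precision is limited by that number. There is no spread between samples, so no difference could be tested. The members were 8 named genes, found as all probe sets whose array annotation gives exactly 1 of their symbols. This rule found 7 of the 8 genes, ARAF, KSR1, MAP2K1, MAP2K2, MAPK3, RPS6KA1 and RPS6KA3, on 11 probe sets. They stand among 11963 genes on 19065 probe sets with 1 symbol. BRAF was not analysed here, and the line labels were not checked against the transcript of the introduced oncogene.

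In this cascade, active RAS at the plasma membrane recruits RAF kinases, which phosphorylate the kinases MEK1 and MEK2, which in turn phosphorylate the ERK kinases. ERK acts on many proteins, among them the RSK kinases, and scaffolds such as KSR1 hold successive kinases together. The signal passes mainly by phosphorylation, which these arrays do not measure. Oncogenic K-ras is the most common driver of pancreatic ductal carcinoma, and this cascade is one of the pathways it feeds.

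A signal is the deposited linear intensity of a probe set, and a log2 ratio is that of the K-ras array over the parental array. The median signal over probe sets other than controls was 46.9 in the K-ras line and 43.9 in the parental line, and the higher of these medians, 46.9, served as a floor. A probe set at or above it in both lines is called measured in both, and one below it in both lines not measured. Below it in 1 line, a probe set gave only a bound. Probe sets of 1 gene are the only repeat measurement, and a technical one. The pooled SD of their log2 ratios was 0.46 over the 1671 genes that had several probe sets measured in both lines. Any 2 such probe sets of a gene differed by a median of 0.38 in log2 ratio, with a 90th percentile of 1.06 over 3256 pairs. Of 11 measured markers of duct epithelium, 0 were higher and 4 lower in the K-ras line by 2-fold or more, 36.4%, against 14.4% lower over all measured genes. KRT19, a duct keratin, was 2.74-fold lower, at 1644.3 in the K-ras line and 4510.6 in the parental line. The epithelial adhesion gene EPCAM was 2.08-fold lower, at 477.5 in the K-ras line and 994.2 in the parental line. The duct transcription factor SOX9 was 2.05-fold lower on one probe set, with a log2 ratio of 0.04 on another. The carbonic anhydrase CA2 did not reach the floor on the K-ras array, with 43.0 there and 266.9 on the parental array, and was at least 5.69-fold lower. The keratins KRT7 and KRT18 and the adhesion gene CDH1 had log2 ratios of -0.32, 0.38 and -0.03. KRT8 and CLDN7 were higher but under 2-fold, with log2 ratios of 0.88 and 0.78. In all, 4 of the 11 measured duct markers lay above 0 and 7 below. The duct genes CFTR and CLDN4 were below the floor in both lines. Of 7 acinar and islet markers 0 were above the floor in either line. Markers of fibroblasts were above it for 4 of 7 genes in the K-ras line and 3 of 7 in the parental line, with summed signals of 371 and 275. The leukocyte count was 2 of 5 in the K-ras line and 0 of 5 in the parental line, with summed signals of 166 and 101 and PTPRC below the floor in both. The endothelial count was 1 of 4 in the K-ras line and 0 of 4 in the parental line, with summed signals of 109 and 43 and VWF and CDH5 below the floor in both. The part of other cells, or of the lower duct markers, in the cascade kinase ratios was not tested. In bulk RNA, fewer cells of a type and less RNA per cell cannot be told apart.

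Each cascade kinase gene stayed within 2-fold between the lines on its brightest probe set, apart from KSR1, for which there is only a bound. The 2 MEK genes had unlike ratios. MAP2K2, which encodes MEK2, was higher in the K-ras line on both of its measured probe sets, by 1.90-fold and 2.49-fold, whereas MAP2K1, which encodes MEK1, was at 0.916 of its parental signal. ARAF was 1.53-fold higher and MAPK3, which encodes ERK1, 1.56-fold lower. RPS6KA1 and RPS6KA3, which encode the kinases RSK1 and RSK2, lay within 1.13-fold of their parental signals. Of the 11 probe sets, 7 were measured in both lines, 1 passed the floor only in the K-ras line and 3 were not measured. Among those above the floor in at least 1 line, 1 probe set, of MAP2K2, was higher by 2-fold or more, and 0 were lower by as much. Over all 11084 probe sets with 1 symbol above the floor in at least 1 line, 10.1% were higher and 14.7% lower by 2-fold or more.

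**Figure D1:**
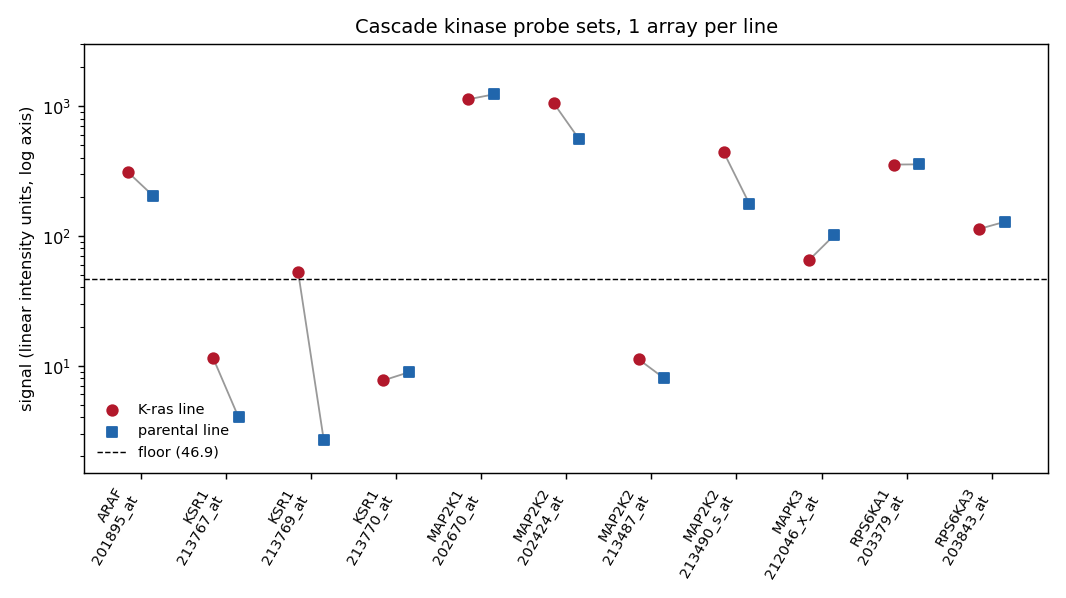
Signal (linear intensity units, log axis) of each of the 11 cascade kinase probe sets, with the K-ras line as circles and the parental line as squares, 1 array each, joined by a line. MAP2K2 stands higher in the K-ras line on 202424_at and 213490_s_at, and 3 probe sets lie below the floor of 46.9 (dashed) on both arrays.

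At the RAF tier, ARAF was the kinase that could be read. ARAF is the RAF family member with the weakest kinase activity towards MEK. Its single probe set, 201895_at, had signals of 309.3 in the K-ras line, against 202.1 in the parental line. Both signals were well above the floor, and the log2 ratio of 0.61 exceeded that of 76.1% of the probe sets measured in both lines. KSR1 encodes a kinase-like scaffold that binds RAF, MEK and ERK. Of its 3 probe sets, 213769_at had signals of 52.4 in the K-ras line and 2.7 in the parental line. The K-ras signal just passed the floor, so the ratio is a bound of at least 1.12-fold. The others were not measured, with 11.5 in the K-ras line against 4.0 in the parental line for 213767_at, and 7.7 in the K-ras line against 8.9 in the parental line for 213770_at. KSR1 thus had no probe set above the floor in the parental line.

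At the MEK tier both genes were measured. Probe set 202424_at of MAP2K2 had signals of 1056.7 in the K-ras line and 555.8 in the parental line, a log2 ratio of 0.93. Probe set 213490_s_at of MAP2K2 had signals of 440.0 in the K-ras line and 177.0 in the parental line, a log2 ratio of 1.31. Both readings of MAP2K2 were higher in the K-ras line, and they differed by 0.39 in log2 ratio, close to the median for 2 probe sets of 1 gene. Names ending in _s_at mark probe sets that can match several transcripts of a gene or family. The third, 213487_at, was not measured, with 11.2 in the K-ras line and 8.0 in the parental line. For the single probe set of MAP2K1, 202670_at, the signal was 1125.6 in the K-ras line and 1228.6 in the parental line. Its log2 ratio of -0.13 was lower than that of MAP2K2 by 1.05 for 202424_at and by 1.44 for 213490_s_at. The first of these gaps lies just inside the 90th percentile for 2 probe sets of the same gene, 1.06, and the second lies outside it. The pair was singled out after its values were seen.

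The promoter windows of MAP2K2, MAP2K1 and ARAF are shown because MAP2K2 and ARAF had the highest log2 ratios of the cascade and MAP2K1 is the close relative that did not share them. Each runs from 250 bases before to 50 bases after the RefSeq gene start in GRCh38.p14, 5′ to 3′ on the gene's strand. Capitals mark matches, on either strand, to any of 7 motifs: the GC box GGGCGG, the CCAAT box CCAAT, the TATA box TATAAA, the E-box CACGTG, the CRE core TGACGT, the AP-1 site TGANTCA and the ETS site CCGGAAG. None of these matches overlaps another in the windows shown. MAP2K2 lies at chr19:4124073-4124372 on the minus strand, MAP2K1 at chr15:66386662-66386961 on the plus strand and ARAF at chrX:47560955-47561254 on the plus strand.
MAP2K2: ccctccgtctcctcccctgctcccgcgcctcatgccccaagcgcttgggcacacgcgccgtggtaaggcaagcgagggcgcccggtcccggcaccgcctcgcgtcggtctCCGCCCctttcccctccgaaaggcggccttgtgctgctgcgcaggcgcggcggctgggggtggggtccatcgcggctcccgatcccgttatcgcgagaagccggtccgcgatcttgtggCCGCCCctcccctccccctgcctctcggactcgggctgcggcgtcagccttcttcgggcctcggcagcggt
MAP2K1: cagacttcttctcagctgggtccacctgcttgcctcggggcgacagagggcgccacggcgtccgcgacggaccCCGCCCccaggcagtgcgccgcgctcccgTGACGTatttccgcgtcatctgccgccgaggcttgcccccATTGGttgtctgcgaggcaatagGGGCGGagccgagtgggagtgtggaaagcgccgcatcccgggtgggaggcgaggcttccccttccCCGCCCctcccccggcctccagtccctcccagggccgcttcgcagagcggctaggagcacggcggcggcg
ARAF: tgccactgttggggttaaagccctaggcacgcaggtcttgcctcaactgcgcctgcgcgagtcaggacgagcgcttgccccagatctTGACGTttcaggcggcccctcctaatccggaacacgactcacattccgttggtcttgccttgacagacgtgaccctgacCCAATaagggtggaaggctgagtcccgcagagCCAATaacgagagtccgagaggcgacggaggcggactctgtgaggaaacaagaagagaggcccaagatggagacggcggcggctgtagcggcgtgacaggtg

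The MAP2K2 window held 2 GC boxes and no other match. The MAP2K1 window held 3 GC boxes, 1 CCAAT box and 1 CRE core. That of ARAF held 2 CCAAT boxes, 1 CRE core and 0 GC boxes. Over all 35116 promoter windows in the table, 45.0% held a GC box, 34.6% a CCAAT box and 7.98% a CRE core. The share with a TATA box was 11.5%, with an E-box 7.26%, with an AP-1 site 7.71% and with an ETS site 10.3%, and these 3 windows held none of those. The GC content was 73.7% for MAP2K2, 72.0% for MAP2K1 and 60.3% for ARAF, with a median of 58.7% over all windows. A match is a run of letters, and binding was not measured.

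At the ERK tier, MAPK3 had signals of 64.8 in the K-ras line and 101.4 in the parental line on 212046_x_at, its single probe set. The log2 ratio of -0.65 was the lowest of the cascade and exceeded that of 21.7% of the probe sets measured in both lines. Both signals were within a few-fold of the floor, and a probe set of the _x_at type can pick up related transcripts, so this value is uncertain. RPS6KA1 encodes RSK1, a kinase that ERK activates and that phosphorylates regulators of translation and survival. Its probe set 203379_at had signals of 353.7 in the K-ras line and 355.1 in the parental line. RPS6KA3, which encodes the related RSK2, had signals of 112.9 in the K-ras line and 128.1 in the parental line on 203843_at. Neither RSK gene differed by more than the SD between probe sets of a gene, with log2 ratios of -0.01 and -0.18.

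**Figure D2:**
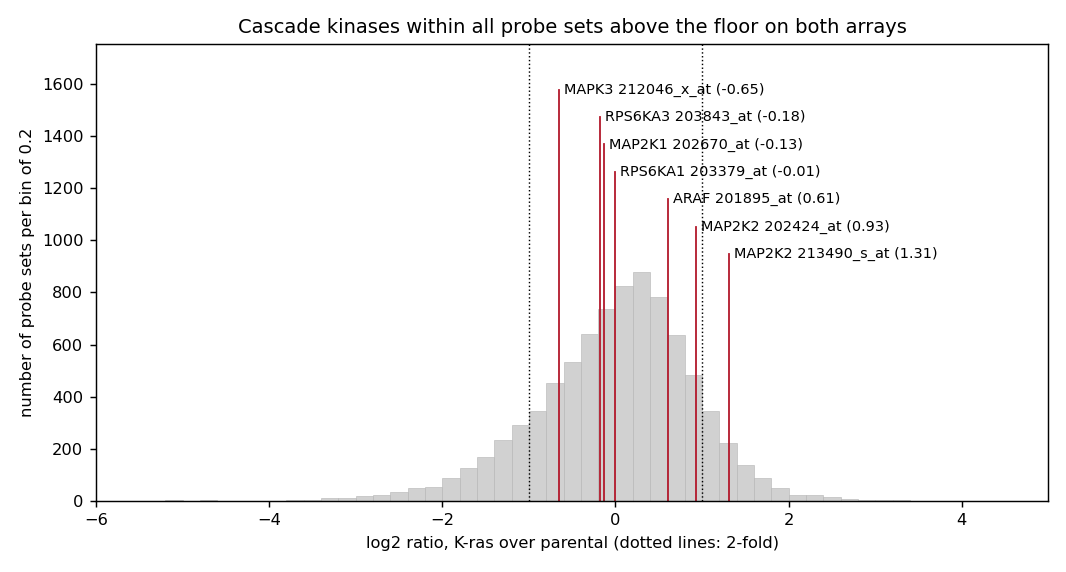
Log2 ratio (K-ras over parental) of all probe sets with 1 symbol measured in both lines, as a histogram with bins of 0.2, with red lines at the 7 cascade kinase probe sets. MAP2K2 213490_s_at at 1.31 is the one past the 2-fold limits (dotted), and MAPK3 at -0.65 is the lowest.

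In the order of their log2 ratios the measured genes were MAP2K2, ARAF, RPS6KA1, MAP2K1, RPS6KA3 and MAPK3, each on its brightest probe set. MAP2K2 and ARAF were 0.31 apart, RPS6KA1 and MAP2K1 0.12 apart and MAP2K1 and RPS6KA3 0.06 apart, all under the median gap of 0.38 for 2 probe sets of 1 gene. ARAF stood 0.62 above RPS6KA1, and RPS6KA3 stood 0.46 above MAPK3. The order within MAP2K2 and ARAF, and within RPS6KA1, MAP2K1 and RPS6KA3, is therefore not resolved. The gaps of 0.62 and 0.46 also lie inside the 90th percentile of 1.06 for 2 probe sets of 1 gene. The steps from ARAF to RPS6KA1 and from RPS6KA3 to MAPK3 are thus uncertain too. Counted by gene, 0 of 7 cascade kinases were higher and 0 lower by 2-fold or more, with KSR1 counted at its bound. The ratio of KSR1 could lie past 2-fold higher, so only 6 genes were placed within 2-fold. Over 7693 measured genes, with bounds counted likewise, the shares were 9.97% higher and 14.4% lower, 767 and 1109 genes. Scaling on 100 maintenance probe sets turned that balance over all genes to 1093 higher and 844 lower. It moved the median log2 ratio of the genes measured in both lines to 0.26, from 0.10 in the scaling used here. Under it MAP2K2 passed 2-fold with a log2 ratio of 1.12. MAP2K2 was also at 1.12 when the median over its probe sets stood for the gene. MAP2K1 turned to 0.07 under the maintenance scaling, RPS6KA1 to 0.19 and RPS6KA3 to 0.01, whereas MAPK3 stayed below 0 at -0.45.

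**Figure D3:**
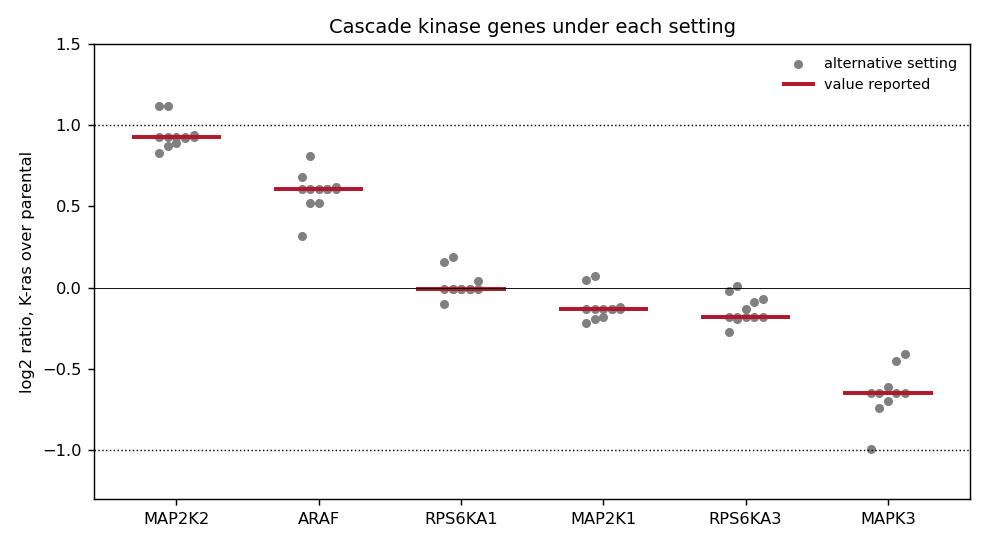
Log2 ratio (K-ras over parental) of the 6 cascade kinase genes measured in both lines, with the value reported as a red bar and each alternative setting as a grey point. The grey points include, for each gene, its log2 ratio minus the median of genes of like genomic span. MAP2K2 and ARAF stayed above 0 and MAPK3 below 0 in every setting plotted, while the other 3 genes lay on both sides of 0.

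Across all genes the log2 ratio moved with the genomic span of the gene, and the cascade kinases differ widely in span. With the genes measured in both lines put into 5 equal groups by span, the median log2 ratio was 0.35 in the shortest group and -0.11 in the longest. In the shortest group 14.9% were higher and 5.26% lower by 2-fold or more. In the longest group 6.67% were higher and 17.2% lower. MAPK3 spans 9.12 kb, ARAF 10.7 kb, MAP2K2 33.8 kb, RPS6KA1 45.3 kb, MAP2K1 105 kb and RPS6KA3 117 kb. The 300 genes nearest in span had a median log2 ratio of -0.01 for MAP2K2, and MAP2K2 stood 0.94 above it. For ARAF that median was 0.30, which left a difference of 0.32. MAPK3 differed by -0.99 from its median of 0.34. MAP2K1 and RPS6KA3 differed from theirs by 0.05 and -0.02. The part of gene span in these ratios was not tested. The 3′ over 5′ signal ratio of the control probe sets, a gauge of RNA integrity, was 1.10 in the K-ras line and 1.28 in the parental line for ACTB. For GAPDH it was 0.888 in the K-ras line and 0.817 in the parental line.

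**Figure D4:**
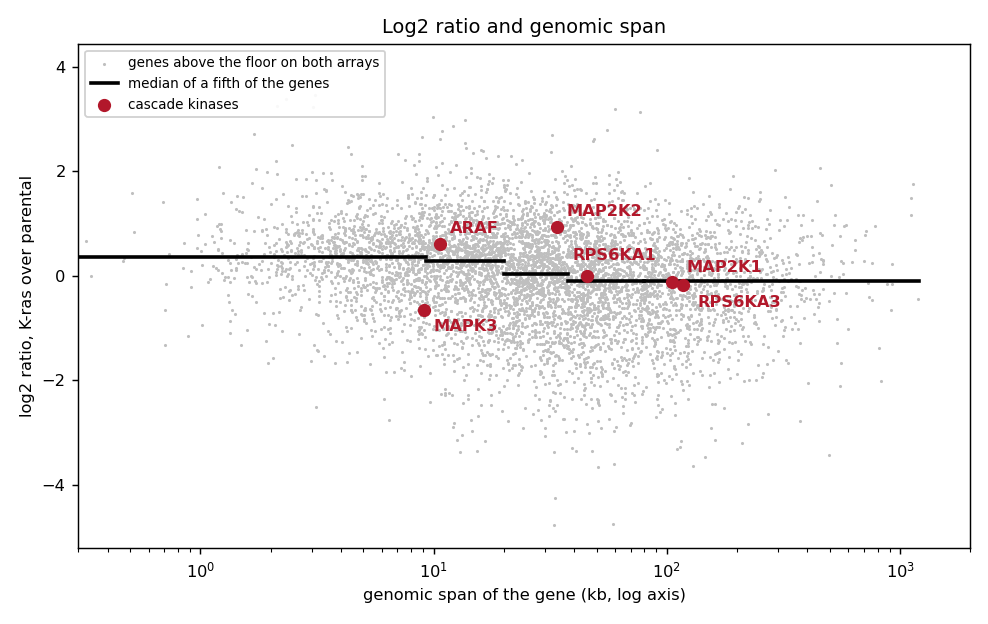
Log2 ratio (K-ras over parental) against genomic span in GRCh38.p14 (kb, log axis) for each gene measured in both lines, with cascade kinases in red and black bars at the median of 5 equal groups by span. MAP2K2 lies above and MAPK3 below the bar at its span, and RPS6KA1, MAP2K1 and RPS6KA3 lie close to theirs.

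Neighbouring genes on the same chromosome were set beside each kinase, as the 20 nearest genes measured in both lines. The neighbours of ARAF had a median log2 ratio of 0.60, with quartiles of 0.45 and 1.14, so ARAF at 0.61 lay at the level of its surroundings. The neighbours of MAP2K2 had a median of 0.51, with quartiles of 0.19 and 1.04, and MAP2K2 lay inside these quartiles. For MAP2K1 the median was -0.15 and for RPS6KA3 -0.20, each near the gene's own value. The neighbours of MAPK3 had a median of 0.48, with a lower quartile of 0.26, and those of RPS6KA1 a median of 0.47, with a lower quartile of 0.23. MAPK3 and RPS6KA1 lay below these quartiles. Whether neighbourhood plays a part in the values was not tested.

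Among other kinases of the same tiers, 3 were above the floor in at least 1 line, but only RPS6KA2 in both. RPS6KA2 was at least 2-fold higher, as were 9.97% of all measured genes. It encodes RSK3, a further target of ERK, and was 4.17-fold higher, reaching 313.7 in the K-ras line, against 75.2 in the parental line. Its second probe set was 2.13-fold higher, with 121.9 in the K-ras line and 57.2 in the parental line. Of the 3 RSK genes measured in both lines, RPS6KA2 was thus the one at least 2-fold higher. The germ-cell kinase MOS and the RSK gene RPS6KA6 just passed the floor in the K-ras line, with bounds of at least 1.04-fold and 1.23-fold. MAP3K8, a kinase that can activate MEK in place of RAF, was not measured. Upstream, the RAS relative RRAS was 2.52-fold higher, at 595.6 in the K-ras line and 236.2 in the parental line. HRAS was at 799.2 in the K-ras line and 484.0 in the parental line, a log2 ratio of 0.72. RRAS2 gave 0.40, with other probe sets at -0.05 and 0.05.

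Among scaffolds and adaptors of the cascade, 0 of 19 measured genes were higher and 3 lower by 2-fold or more. The lower share, 15.8%, is near the 14.4% of all measured genes. Their median log2 ratio was -0.13, against 0.10 over all measured genes. Under maintenance scaling the scaffold median was 0.07, against 0.26 over the genes measured in both lines. IQGAP1, a scaffold that binds RAF, MEK and ERK, was 9.72-fold lower, at 54.9 in the K-ras line and 533.8 in the parental line, and its second measured probe set was 4.46-fold lower. SHOC2, part of the phosphatase complex that removes an inhibitory mark from RAF, was 3.63-fold lower. LAMTOR3, which holds MEK1 and ERK1 at late endosomes, was 3.08-fold lower. PEA15, which binds ERK and keeps it in the cytoplasm, had a log2 ratio of 0.91 on its brighter probe set and 1.54 on the other. The abundant 14-3-3 genes SFN, YWHAZ and YWHAB, whose products bind phosphorylated RAF, had log2 ratios of 0.30, -0.14 and -0.76. Other measured probe sets gave 0.31 and 0.70 for SFN, -0.65 to -0.34 for YWHAZ and -0.33 and -0.14 for YWHAB. The RAF inhibitor PEBP1 was at -0.29, with other probe sets at -0.56 and -0.49, and the kinase chaperone partner CDC37 was at -0.13.

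Of 20 measured genes on a list of phosphatases, not all specific to this cascade, 3 were higher and 4 lower by 2-fold or more. These shares, 15% and 20%, are not far from the 9.97% and 14.4% of all measured genes, and the median log2 ratio of 0.11 is close to the 0.10 over all of them. The MAP kinase phosphatases DUSP1 and DUSP5 were 11.0-fold and 5.85-fold higher. PPP2R1A, a scaffold subunit of phosphatase 2A, was 2.06-fold higher. Another scaffold subunit, PPP2R1B, was 1.95-fold lower, with other probe sets at log2 ratios of -0.89, -0.42 and -0.30. The catalytic subunits of phosphatase 1 PPP1CB and PPP1CC were 5.53-fold and 2.97-fold lower, while PPP1CA had a log2 ratio of 0.29. PPP2R5C was 2.75-fold lower, and another probe set gave a log2 ratio of -0.46. DUSP10 was at least 2.28-fold lower, though its other probe set gave -0.20. The ERK phosphatase DUSP6 was at 0.56. DUSP7 was at 0.87, and its other probe set passed 2-fold at 1.41, with a parental signal of 53.1, near the floor. DUSP4, DUSP9 and DUSP14 were at 0.42, 0.65 and 0.06.

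Genes downstream of ERK had a median log2 ratio of 0.73, against 0.10 over all measured genes and -0.01 over the cascade kinases. Of 31 measured, 10 were higher and 2 lower by 2-fold or more, 32.3% and 6.45%, against 9.97% and 14.4% of all measured genes. Without _x_at and _s_at probe sets, 5 of 15 were higher and 2 lower, 33.3% and 13.3%, against 9.88% and 15.5% of the 4656 genes then measured. The higher ones were the transcription factors CEBPB (4.58-fold), ETS1 (3.04-fold), FOSL1 (2.80-fold), ETS2 (2.49-fold), ETV5 (2.46-fold), ELK1 (2.22-fold) and ETV4 (2.19-fold), with PHLDA1 (2.81-fold), SPRY4 (2.33-fold) and TSC2 (2.02-fold). ELK1 rests on an _x_at probe set, and a second, also of the _x_at type, gave a log2 ratio of 0.79. The PHLDA1 probe sets ranged from -0.13 to 3.10. The cap-binding protein gene EIF4E was 3.42-fold lower. ELK3 was 2.91-fold lower on one probe set, with another at 0.74. The ERK-activated kinases MKNK1 and MKNK2 were at 0.51 and 0.64, and RPS6KA4 was at 0.16, all under 2-fold. EGR1 was at -0.48, with another probe set at -0.06, and FOS was at 0.07. Of the measured genes on the list, 23 lay above 0 and 8 below. The list covers substrates and kinases downstream of ERK and was not limited to genes whose transcription responds to ERK. This list shares genes with one already known to be high in these data, so its median and its counts are no independent evidence.

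In the parallel MAP kinase tiers, 1 of 20 measured genes was higher and 2 were lower by 2-fold or more, with a median log2 ratio of 0.15. Those within 2-fold made up 85.0%, against 75.6% of all measured genes. MAP3K11, an activator of the JNK branch, was 2.69-fold higher. MAPK6, which encodes the atypical kinase ERK3, was 5.83-fold lower, at 204.0 in the K-ras line and 1189.5 in the parental line. MAP2K4, which phosphorylates JNK, was 2.34-fold lower on one probe set and had a log2 ratio of -0.25 on another. The p38 kinase MAPK13 and the p38 target MAPKAPK2 were at 0.41 and 0.67. MAP3K4 and MAP3K7, kinases at the top of these tiers, had log2 ratios of -0.26 and -0.55 on their brightest probe sets, while other probe sets of theirs passed 2-fold at -1.50 and -1.27.

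**Figure D5:**
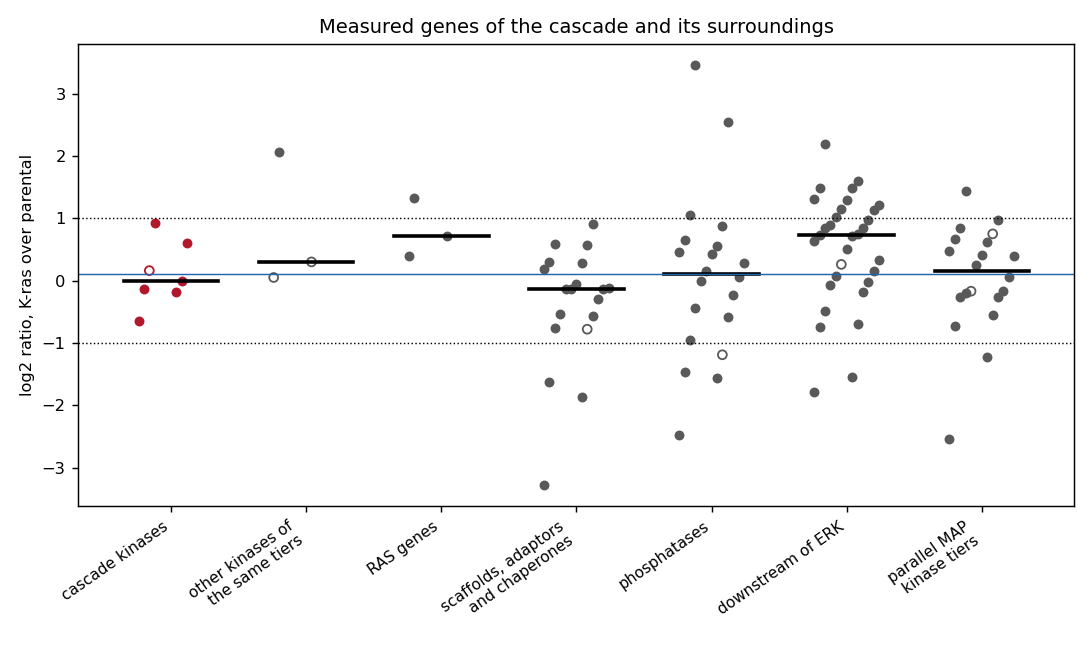
Log2 ratio (K-ras over parental) of each measured gene by list, with black bars at list medians, a blue line at the median of all measured genes (0.10), dotted lines at 2-fold and open circles for bounds against the floor. The cascade kinases (red) lie between -0.65 and 0.93, with KSR1 placed at its bound. The genes downstream of ERK have a median of 0.73, on a list that shares genes with one already known to be high.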

How the data were processed

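The table the authors deposited holds 1 linear intensity per probe set and array for 22283 probe sets, 68 of them controls. The software was not given in the sources used here. A trimmed mean, leaving out 2% at each end, was 150.06 in both columns, so the table was treated as scaled before deposit, and rescaling to it changed little. Per the labels' protocols, total RNA was extracted with phenol and chloroform, column-purified and made into cRNA by the array maker's procedure. Probe sets were named through the platform annotation, and gene spans and promoters come from RefSeq GRCh38.p14.

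A gene was represented by its probe set with the highest mean log2 signal, and 2-fold was the threshold. Named genes were all members, and from each list those past 2-fold and up to 3 bright ones; others were added after their values were seen. Members, lists and settings were chosen with earlier results of these data known. In all, 13 alternatives were planned and 1, the comparison with genes of like span, was added after the data were seen. Functions were tested on simulated data. Python 3.11.15, numpy 2.4.6, pandas 2.3.3, statsmodels 0.14.6 and matplotlib 3.10.9 were used.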

Additional observations from a re-analysis of the deposited data

How the results depend on the processing

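No paired analysis was possible because each line has 1 array, and for the same reason no replicate could be left out. Over the 11 planned settings other than the thresholds, MAP2K2 had log2 ratios of 0.83 to 1.12. Those of ARAF were 0.52 to 0.81 and those of MAPK3 -0.74 to -0.41. The added setting, the difference from genes of like span, gave 0.94, 0.32 and -0.99 for these genes in that order. MAPK3 had no value with the floor at the 70th percentile or without _x_at and _s_at probe sets. KSR1 turns on the floor, with 1.40 at the 30th percentile, 4.28 with no floor and 1.0 with the floor as pseudocount, against a bound of 0.16.

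The number of cascade genes at least 2-fold higher was 1 with maintenance scaling, a floor at the 30th percentile, no floor, the floor as pseudocount or the median over probe sets, against 0 in the report. Of probe sets it was 2, 2, 3 and 2 under the first 4 of these, and 0 without _x_at and _s_at probe sets. At 1.5-fold, 2 cascade genes and 3 probe sets were higher and 1 of each lower, and at 3-fold 0 probe sets were higher. Over all genes, the higher and lower counts were 1363 and 1411 with the floor at the 30th percentile, 451 and 632 at the 70th, 2428 and 1797 with no floor, 469 and 837 with the floor as pseudocount and 460 and 721 without _x_at and _s_at probe sets. They were 1845 and 1860 at 1.5-fold and 185 and 480 at 3-fold. The spread between probe sets of a gene was 1.02 with no floor.

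The median of the other kinases of the same tiers was 1.13 with loess and 1.36 at the 70th percentile, against 0.30. Of the parallel tiers 2 genes were higher with quantile or maintenance scaling, and the lower ones numbered 1 at the 70th percentile, with the pseudocount or with the median, 4 with no floor and 0 without _x_at and _s_at probe sets. Lower phosphatases numbered 2 at the 70th percentile or with the median. Higher scaffolds numbered 1 with maintenance scaling or the median. Genes downstream of ERK numbered 5 higher without _x_at and _s_at probe sets and 1 lower with the median. Why these counts moved was not tested. Of the cascade kinases, KSR1, MAPK3 and RPS6KA3 had signals within a few-fold of the floor, as did IQGAP1, SHOC2 and LAMTOR3 in the K-ras line. Among other genes named here, this also held for PPP1CB, PPP2R5C and MAP2K4 in the K-ras line. In the parental line it held for RPS6KA2, ETS1, ETS2, ETV4, TSC2 and MAP3K11, so the folds of these genes are uncertain.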
